A study of Rattus norvegicus with 325 samples.

Results

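The genes described here are the subunits and close regulators of the transcription factor NF-kappaB and the receptor through which the cytokine Tweak acts on it, followed across 4 skeletal muscles and 7 ages of the rat. They were taken by symbol from the gene counts. Of 8 genes listed, 7 were matched (Bcl3, Nfkb1, Nfkb2, Rela, Nfkbia, Tnfrsf12a and Map3k14) among 17315 symbols. The other one, Relb, was not analysed here. All 7 passed the filter on low counts in every muscle, and each had exactly 1 line. RNA came from untreated males of an outbred rat strain, Sprague Dawley, aged 6, 9 or 12 months or 18, 21, 24 or 27 months. The muscles were the diaphragm, which drives breathing, the soleus, a slow limb muscle, and the gastrocnemius and tibialis anterior, which are mostly fast limb muscles. Each group of a single muscle and age held 12 libraries, except 11 for diaphragm at 9 months, 13 for tibialis anterior at 21 months, and 10, 12, 11, 11, 9, 9 and 11 in the gastrocnemius in order of age. Libraries of a muscle at a given age were separate animals according to the study's supplement. Animals of a given age were dissected on a single day, so an effect of age and one of the dissection day cannot be told apart.

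NF-kappaB is a dimer of proteins of the Rel family that waits in the cytoplasm and moves to the nucleus once released. In the canonical route, inflammatory signals remove the inhibitor encoded by Nfkbia and free dimers that hold Rela. In the noncanonical route, receptors such as the Tweak receptor let the kinase encoded by Map3k14 (NIK) accumulate, and the Nfkb2 precursor is then cut to its active form. Bcl3 is an unusual member of the inhibitor family that works in the nucleus, where it binds dimers of the Nfkb1 or Nfkb2 products. In skeletal muscle Bcl3 and Nfkb1 are known for their part in wasting during disuse, and Tweak signalling is known for its part in denervation. RNA levels do not report any of these protein steps.

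The promoters of the 3 members called higher at 27 months in 3 or more muscles are shown with that of Nfkbia, which was not called, so that the letters near their start sites can be compared. The sequences were taken from RefSeq (build GRCr8), a later build than the one the counts were made on, and run from 250 bases before the annotated start to 50 after it. All 7 measured members had an entry. Letters that match the kappa-B consensus on either strand stand in capitals.
Bcl3 promoter, chr1:88613506-88613805, minus strand: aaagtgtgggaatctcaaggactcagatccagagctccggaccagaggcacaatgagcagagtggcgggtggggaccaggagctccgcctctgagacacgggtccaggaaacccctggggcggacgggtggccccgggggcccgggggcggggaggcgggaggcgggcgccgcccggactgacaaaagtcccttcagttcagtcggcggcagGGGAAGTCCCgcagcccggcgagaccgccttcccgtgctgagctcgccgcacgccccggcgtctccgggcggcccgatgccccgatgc
Nfkb2 promoter, chr1:255108124-255108423, plus strand: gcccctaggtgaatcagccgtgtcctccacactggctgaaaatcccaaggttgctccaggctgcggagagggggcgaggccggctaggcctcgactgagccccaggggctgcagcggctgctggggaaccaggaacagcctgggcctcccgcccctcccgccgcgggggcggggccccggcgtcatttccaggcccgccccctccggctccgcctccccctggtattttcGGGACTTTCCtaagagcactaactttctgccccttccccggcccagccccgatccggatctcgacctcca
Map3k14 promoter, chr10:88715543-88715842, minus strand: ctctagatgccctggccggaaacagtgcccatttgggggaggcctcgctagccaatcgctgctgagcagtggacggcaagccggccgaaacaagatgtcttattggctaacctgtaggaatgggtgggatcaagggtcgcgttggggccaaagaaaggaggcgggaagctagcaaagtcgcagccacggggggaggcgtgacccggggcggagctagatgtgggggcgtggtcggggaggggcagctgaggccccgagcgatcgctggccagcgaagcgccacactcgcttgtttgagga
Nfkbia promoter, chr6:78597023-78597322, minus strand: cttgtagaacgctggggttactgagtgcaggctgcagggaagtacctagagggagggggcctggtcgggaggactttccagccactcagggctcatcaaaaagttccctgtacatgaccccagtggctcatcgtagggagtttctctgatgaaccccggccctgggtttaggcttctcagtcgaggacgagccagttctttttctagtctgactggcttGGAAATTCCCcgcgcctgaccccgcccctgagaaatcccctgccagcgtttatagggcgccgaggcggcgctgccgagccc
The consensus matched 7.51% of the 33469 promoters of this length. Among the members 4 promoters held a match and 3 did not. The match lay at an offset of -38 bases from the annotated start in Bcl3, -20 in Nfkb2, -31 in Nfkbia and 3 in Nfkb1. In Bcl3 the same 10 letters matched on both strands and were counted as 1 site. No match was found in this window of Map3k14, Rela or Tnfrsf12a. Of the 4 members called higher in any muscle at 27 months, 2 held a match (Bcl3 and Nfkb2) and 2 did not (Map3k14 and Tnfrsf12a), and of the 3 called in no muscle Nfkb1 and Nfkbia held one.

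The libraries held 17.6M to 85.3M counts (median 31.9M), and the lowest count of any member in any library was 27, for Bcl3. As a check of the labels, the slow myosin gene Myh7 had a median of 47468 CPM (reads per 1e+06 counted, scaled by trimmed mean of M values) in soleus and 2207 in tibialis anterior, and Myh4, a fast myosin gene, 14.3 and 77830. Running numbers in the labels put the gastrocnemius in a series of its own, so its contrasts with other muscles and that series cannot be told apart. In the other muscles all libraries at 12 months were of another series, while 6 and 27 months shared a series in every muscle. The 4 libraries least like their own group had a median correlation with it of 0.925 to 0.964, against at least 0.967 in all others. Diaphragm replicate 0 at 6 months stood apart in several members and is taken up with the Tweak receptor.

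To ask which members depart from their level in young adults, limma-voom fits of single muscles set each later age against 6 months. Calls needed an adjusted p (Benjamini-Hochberg, over all genes tested) under 0.05 and a size above 1.5-fold. At 27 months Nfkb2 and Map3k14 rose in all 4 muscles and Bcl3 rose in the 3 limb muscles. Tnfrsf12a rose in the gastrocnemius and was called lower in the diaphragm. Nfkb1, Rela and Nfkbia were called in no muscle at any age. By muscle, 2 members were called higher and 1 lower in the diaphragm, 4 higher in the gastrocnemius, and 3 higher in both the soleus and the tibialis anterior, each out of 7. Over all genes tested, the share called higher was 3.27% in the diaphragm, 15.1% in gastrocnemius, 9.21% in soleus and 17.2% in tibialis anterior. The share called lower was 4.25%, 7.76%, 5.78% and 10.4% in the same order. Levels below are CPM on a scale common to all libraries, and changes are log2 values from the fit of each muscle.

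**Figure D1:**
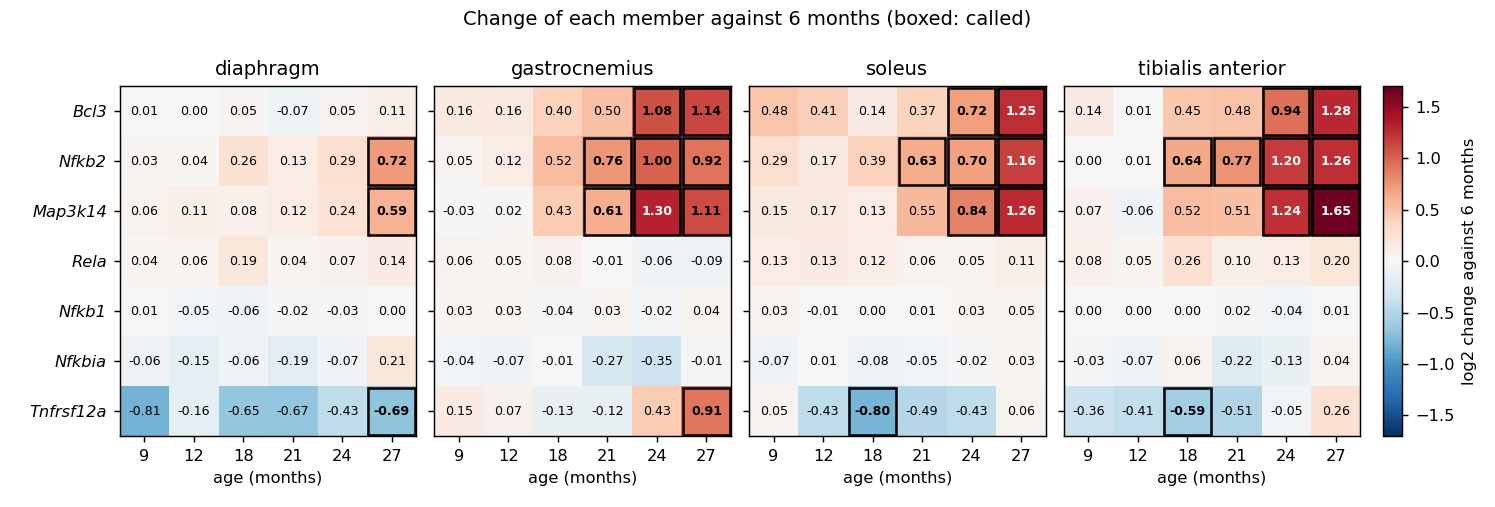
Log2 change of each member (rows) against 6 months at each later age (columns), in 4 panels by muscle, with the value printed in each cell and called changes boxed. The boxed cells of Nfkb2, Map3k14 and Bcl3 lie at 18 months or later in the limb muscles and, for Nfkb2 and Map3k14, at 27 months in the diaphragm, while Rela, Nfkb1 and Nfkbia hold no boxed cell.

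Nfkb2, the precursor of the noncanonical subunit, rose in every muscle, and at 27 months no library overlapped those at 6 months. In the diaphragm it ran from 12.5 to 16.4 CPM (median 14.2) at 6 months and from 19.8 to 30.9 (median 23.3) at 27 months. In the gastrocnemius the range was 19.4 to 30.0 (median 22.3) at 6 months and 33.0 to 54.2 (median 46.1) at 27 months. The soleus held 11.4 to 16.9 (median 13.9) and later 21.3 to 39.8 (median 31.4). Every old library thus lay above the highest young library in these muscles. The same was true of the tibialis anterior, with 14.3 to 18.0 (median 16.4) at 6 months and 27.8 to 52.4 (median 37.5) at 27 months. Of all genes tested, 1.26% had every 27-month library above every 6-month library in the diaphragm, 6.54% in gastrocnemius, 2.21% in soleus and 8.83% in tibialis anterior. The log2 change of Nfkb2 was 0.72 in the diaphragm (SE 0.07, adjusted p = 1.5e-13), 0.92 in gastrocnemius (SE 0.10, adjusted p = 1.2e-12), 1.16 in soleus (SE 0.09, adjusted p = 3e-18) and 1.26 in tibialis anterior (SE 0.09, adjusted p = 1.1e-20). Leaving out any single library at 6 or 27 months kept these calls, with values of 0.69 to 0.74, 0.89 to 0.97, 1.13 to 1.20 and 1.21 to 1.30.

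Of the rising members Nfkb2 was called at the youngest age. It was called in the tibialis anterior at 18 months (0.64, SE 0.10, adjusted p = 2e-07), where all 12 libraries already lay above those at 6 months, and in the gastrocnemius (0.76, SE 0.10) and soleus (0.63, SE 0.10) at 21 months. At 24 months it was at 1.20 in tibialis anterior, 1.00 in gastrocnemius and 0.70 in soleus, all called. In the diaphragm the changes at 18 and 24 months were 0.26 and 0.29, with adjusted p below 0.05 but under the 1.5-fold threshold, and the call came only at 27 months. Between the muscles at 6 months the gastrocnemius was highest, by a log2 difference of 0.70 over the diaphragm (SE 0.10, adjusted p = 5.3e-11) and of 0.71 over the soleus. The lower 3 muscles did not differ from each other beyond their spread, with differences of -0.01 to 0.18 and adjusted p from 0.079 to 0.95.

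Map3k14, which encodes the kinase that starts the noncanonical route, rose in every muscle too. In the tibialis anterior it ran from 13.2 to 27.6 CPM (median 16.1) at 6 months and from 35.4 to 71.4 (median 57.4) at 27 months. In the soleus it ran from 14.6 to 20.0 (median 16.2) and later from 22.0 to 62.2 (median 38.0). Neither pair of groups overlapped. In the gastrocnemius it ran from 14.3 to 25.6 (median 19.0) and later from 23.4 to 58.9 (median 44.2), and 10 of 11 old libraries lay above the highest young library. In the diaphragm it ran from 12.2 to 32.3 (median 14.8) and later from 16.8 to 38.6 (median 21.8). There the groups overlapped, and replicate 0 at 6 months stood at 32.3 and the other 11 at no more than 16.8. The log2 change was 1.65 in the tibialis anterior (SE 0.13, adjusted p = 5.5e-19), 1.26 in the soleus (SE 0.11, adjusted p = 4e-16), 1.11 in the gastrocnemius (SE 0.13, adjusted p = 2e-11) and 0.59 in the diaphragm (SE 0.11, adjusted p = 7.1e-06). The diaphragm value lay at the 1.5-fold threshold: it passed under 0.05 in every fit with a library left out, but 13 of 24 such fits put it below 1.5-fold (0.52 to 0.71). Without replicate 0 at 6 months it was 0.71 (SE 0.10, adjusted p = 1.6e-08). With the replicate number as a block it was 0.58 and no longer called, but within a muscle that number ties different animals of different ages.

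Map3k14 was called in the gastrocnemius at 21 months (0.61, SE 0.14, adjusted p = 0.00063). In the tibialis anterior at 18 months (0.52, adjusted p = 0.0019) and the soleus at 21 months (0.55, adjusted p = 0.00063) it passed the adjusted p but not the 1.5-fold threshold. It was called by 24 months in all 3 limb muscles (1.30 in the gastrocnemius, 0.84 in the soleus, 1.24 in the tibialis anterior). In the gastrocnemius its median was 48.3 at 24 months and 44.2 at 27 months. At 6 months its level did not differ between any pair of muscles at an adjusted p under 0.05 (0.062 to 0.59, differences of -0.19 to 0.28). The interval of the largest of these, between gastrocnemius and diaphragm, ran from 0.01 to 0.54. Without diaphragm replicate 0 that difference was 0.39 (adjusted p = 0.0078) and the one between tibialis anterior and diaphragm 0.30 (adjusted p = 0.038), both still under 1.5-fold.

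Bcl3, the nuclear member of the inhibitor family, rose in the limb muscles and was not called for the diaphragm. The tibialis anterior held 1.45 to 2.54 CPM (median 2.13) at 6 months and 2.62 to 7.19 (median 5.23) at 27 months. The gastrocnemius held 1.80 to 2.66 (median 1.98) and later 2.67 to 6.06 (median 5.06). These groups did not overlap, although the closest libraries nearly touched. The soleus held 1.67 to 3.38 (median 2.45) and later 3.06 to 8.93 (median 5.64), and 11 of 12 old libraries were above the highest young one. The diaphragm held 2.32 to 6.50 (median 3.53) and later 2.99 to 5.03 (median 3.87), so the old libraries lay inside the young range. The log2 changes were 1.28 (SE 0.16, adjusted p = 8.1e-11) in the tibialis anterior, 1.14 (SE 0.14, adjusted p = 3.2e-10) in the gastrocnemius and 1.25 (SE 0.17, adjusted p = 3.4e-09) in the soleus. In the diaphragm the change was 0.11 (SE 0.13, adjusted p = 0.51), with a 95% interval of -0.14 to 0.36, and the 24 fits with a library left out gave 0.01 to 0.24.

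At 24 months Bcl3 was called in the same 3 limb muscles, at 1.08 in gastrocnemius, 0.72 in soleus and 0.94 in tibialis anterior. At 18 and 21 months it was 0.45 and 0.48 in the tibialis anterior and 0.40 and 0.50 in the gastrocnemius, under the 1.5-fold threshold. The gastrocnemius value at 18 months also missed the adjusted p threshold (adjusted p = 0.076), which the others passed. In the soleus it stood at 0.48, 0.41, 0.14 and 0.37 from 9 to 21 months, with adjusted p from 0.21 to 0.67. Single libraries went well past their group at 21 months, with a highest value of 9.56 in the tibialis anterior against a median of 2.71, in a library that was among the 4 least like their group, and 7.85 in the soleus against 3.18. At 6 months the diaphragm held the most Bcl3. It was above the gastrocnemius (-0.75 for gastrocnemius minus diaphragm, SE 0.18, adjusted p = 0.00011) and the tibialis anterior (-0.74, SE 0.17, adjusted p = 5.2e-05), and above the soleus by less than 1.5-fold (-0.48, SE 0.16, adjusted p = 0.0055). The limb muscles did not differ from each other beyond their spread (adjusted p 0.20 to 0.98). By 27 months the order of the medians had turned, with 3.87 in the diaphragm against 5.06 to 5.64 in the limb muscles.

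**Figure D2:**
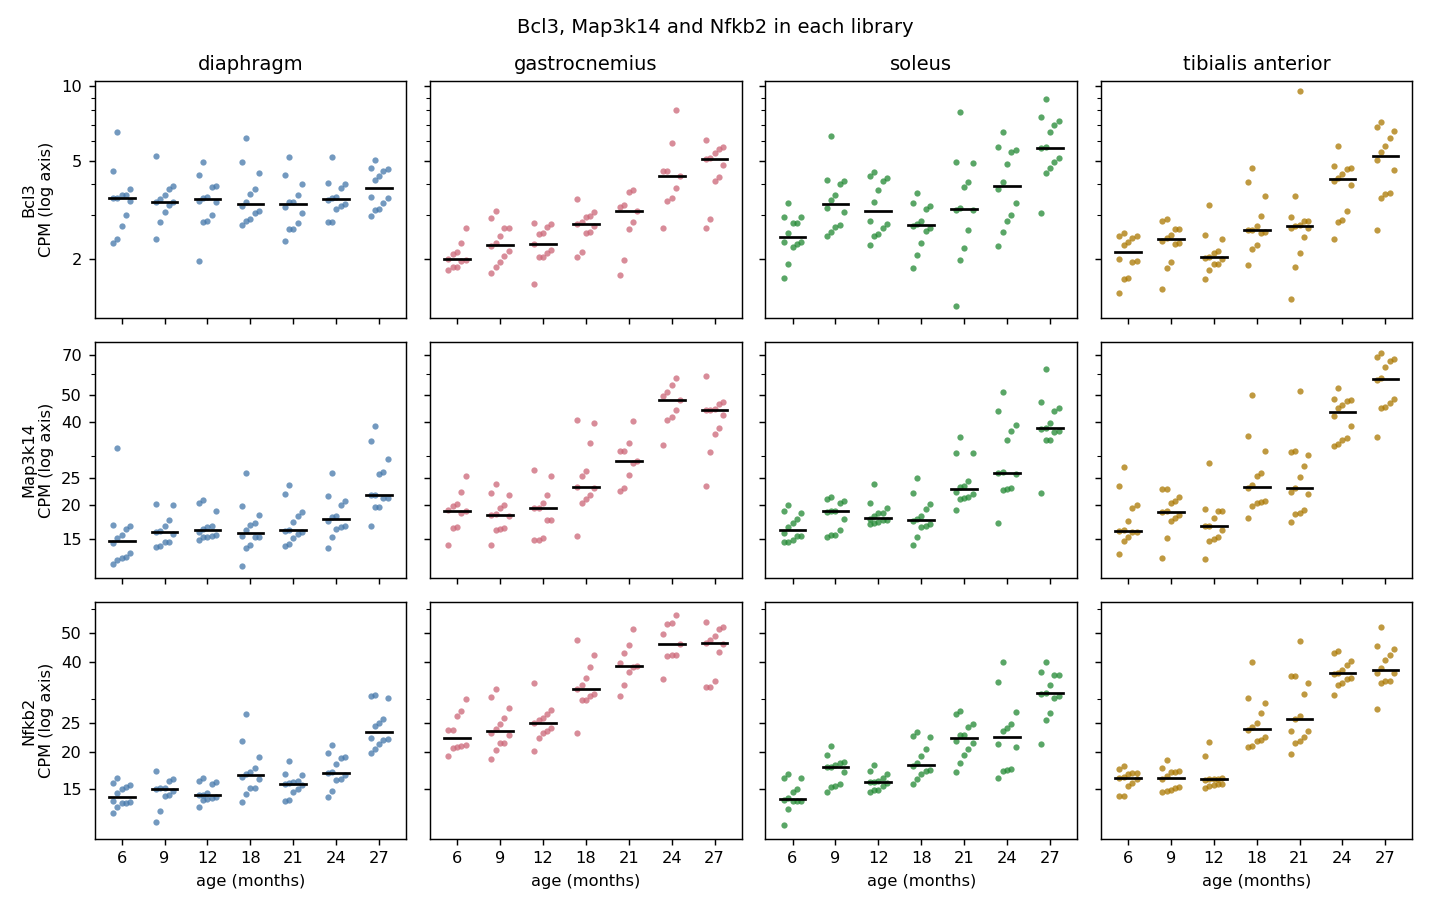
CPM of Bcl3, Map3k14 and Nfkb2 (rows, log axes) in each library by age in months, in 4 columns by muscle, where a point is a library and a black bar the group's median. The limb muscle medians are higher at 27 than at 6 months, in the soleus the Bcl3 medians run 2.45, 3.33, 3.12, 2.73 and 3.18 before 24 months, and in the diaphragm those of Bcl3 lie between 3.32 and 3.87 while Nfkb2 reaches 23.3 at 27 months.

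Of the canonical subunits, Nfkb1, precursor of the usual partner of Rela, held its level. At 6 months its medians were 56.1 CPM in the diaphragm, 54.9 in gastrocnemius, 63.8 in soleus and 51.9 in tibialis anterior, and at 27 months 58.2, 56.0, 66.1 and 52.2. Young and old groups overlapped in every muscle. Over all 24 comparisons with 6 months its log2 change ran from -0.06 to 0.05, the 95% intervals ran from -0.12 to 0.12, and none had an adjusted p under 0.05. Muscles differed more than ages: at 6 months the soleus was 0.30 above the tibialis anterior (SE 0.03) and 0.24 above the gastrocnemius (SE 0.03), which is below 1.5-fold.

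Rela, the transactivating subunit, stayed under 1.5-fold at every age, with an adjusted p under 0.05 in 9 of 24 comparisons with 6 months. Its medians at 6 and 27 months were 51.3 and 57.5 CPM in the diaphragm, 48.6 and 48.1 in the gastrocnemius, 52.9 and 55.4 in the soleus and 43.4 and 50.8 in the tibialis anterior, with overlapping groups throughout. The log2 change at 27 months was 0.20 in the tibialis anterior (SE 0.03, adjusted p = 7.2e-08), 0.14 in the diaphragm (SE 0.04, adjusted p = 0.0031) and 0.11 in the soleus (SE 0.04, adjusted p = 0.014), all under 1.5-fold, and -0.09 in the gastrocnemius (SE 0.06, adjusted p = 0.20). With counts scaled to library totals alone the gastrocnemius value turned to 0.19, in a fit where the median change of all genes was 0.32 against 0.04 with the scaling used here. Diaphragm replicate 11 at 18 months, among the libraries least like their group, held 84.3 CPM of Rela against at most 60.0 in the others of its group.

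Nfkbia, the inhibitor that NF-kappaB itself induces, was not called at any age. Its medians at 6 and 27 months were 52.5 and 66.9 CPM in the diaphragm, 36.2 and 37.8 in the gastrocnemius, 52.0 and 56.2 in the soleus and 39.8 and 42.1 in the tibialis anterior. Old and young libraries overlapped in each muscle, and libraries of a single group spread widely, for instance from 50.8 to 88.7 in the old diaphragm. The log2 changes at 27 months were 0.21 (SE 0.10, adjusted p = 0.071), -0.01, 0.03 and 0.04 in the same order. The value with an adjusted p under 0.05 was that of the gastrocnemius at 24 months, -0.35 (SE 0.11), also under 1.5-fold. At 6 months Nfkbia was lower in the gastrocnemius (-0.55, SE 0.10) and tibialis anterior (-0.42, SE 0.10) than in the diaphragm, again by less than 1.5-fold.

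Tnfrsf12a, which encodes the Tweak receptor, varied widely between libraries. In the gastrocnemius it ran from 5.04 to 15.6 CPM (median 8.45) at 6 months and from 8.05 to 34.7 (median 14.2) at 27 months, and 5 of 11 old libraries lay above the young range. Its log2 change there was 0.91 (SE 0.25, adjusted p = 0.0014), and fits without any single library gave 0.78 to 1.00. With Bonferroni adjustment over all genes, the adjustment the study used, this call and the one in the diaphragm were lost. In the soleus it held 8.69 to 22.2 (median 12.6) and later 8.29 to 27.5 (median 13.1), a change of 0.06 (SE 0.20, adjusted p = 0.81). In the tibialis anterior it held 6.49 to 18.2 (median 11.3) and later 8.08 to 22.4, with 2 of 12 libraries above the young range, a change of 0.26 (SE 0.17, adjusted p = 0.16). The groups overlapped in every muscle. At 18 months it was called lower in the soleus (-0.80, SE 0.24, adjusted p = 0.0072), where 8 of 12 libraries lay below the young range, and in the tibialis anterior (-0.59, SE 0.18, adjusted p = 0.0079), where 3 did.

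The diaphragm call was marginal and moved most with a single library. Tnfrsf12a held 3.77 to 13.2 CPM (median 6.50) in 11 of the 12 libraries at 6 months and 63.9 in replicate 0, against 2.92 to 9.39 (median 5.71) at 27 months. The change with all libraries was -0.69 (SE 0.27, adjusted p = 0.032), and without replicate 0 at 6 months it was -0.32 (SE 0.22, adjusted p = 0.25). Leaving out any of 4 other single libraries also put the adjusted p above 0.05 (0.051 to 0.065): replicates 1, 3 and 4 at 27 months and replicate 3 at 6 months. The call was also lost in limma-voom with quality weights (-0.51, adjusted p = 0.099) and with only 6 and 27 months (-0.68, adjusted p = 0.13). Replicate 0 at 6 months was the highest of its group in 6 of the 7 members, well apart in Bcl3 (6.50 against at most 4.55) and Map3k14 (32.3), and close to the next in Nfkb1 (61.7 against 60.3), Rela (58.0 against 54.5) and Nfkbia (72.0 against 71.4). Of genes chosen after their values were seen, the stress and early response genes Atf3, Egr1 and Ankrd1 stood at 362, 363 and 199 CPM in it, against at most 38.0, 37.1 and 8.75 in the other 11. The part of that library's state in the diaphragm contrasts was measured only by leaving it out. At 6 months Tnfrsf12a was higher in the soleus than in the diaphragm (0.65, SE 0.23, adjusted p = 0.0087), and this difference was 1.01 without that library. It was no longer called with the replicate number as a block (0.58, below 1.5-fold), in edgeR (0.17, adjusted p = 0.54) or in DESeq2 (0.17, adjusted p = 0.57).

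**Figure D3:**
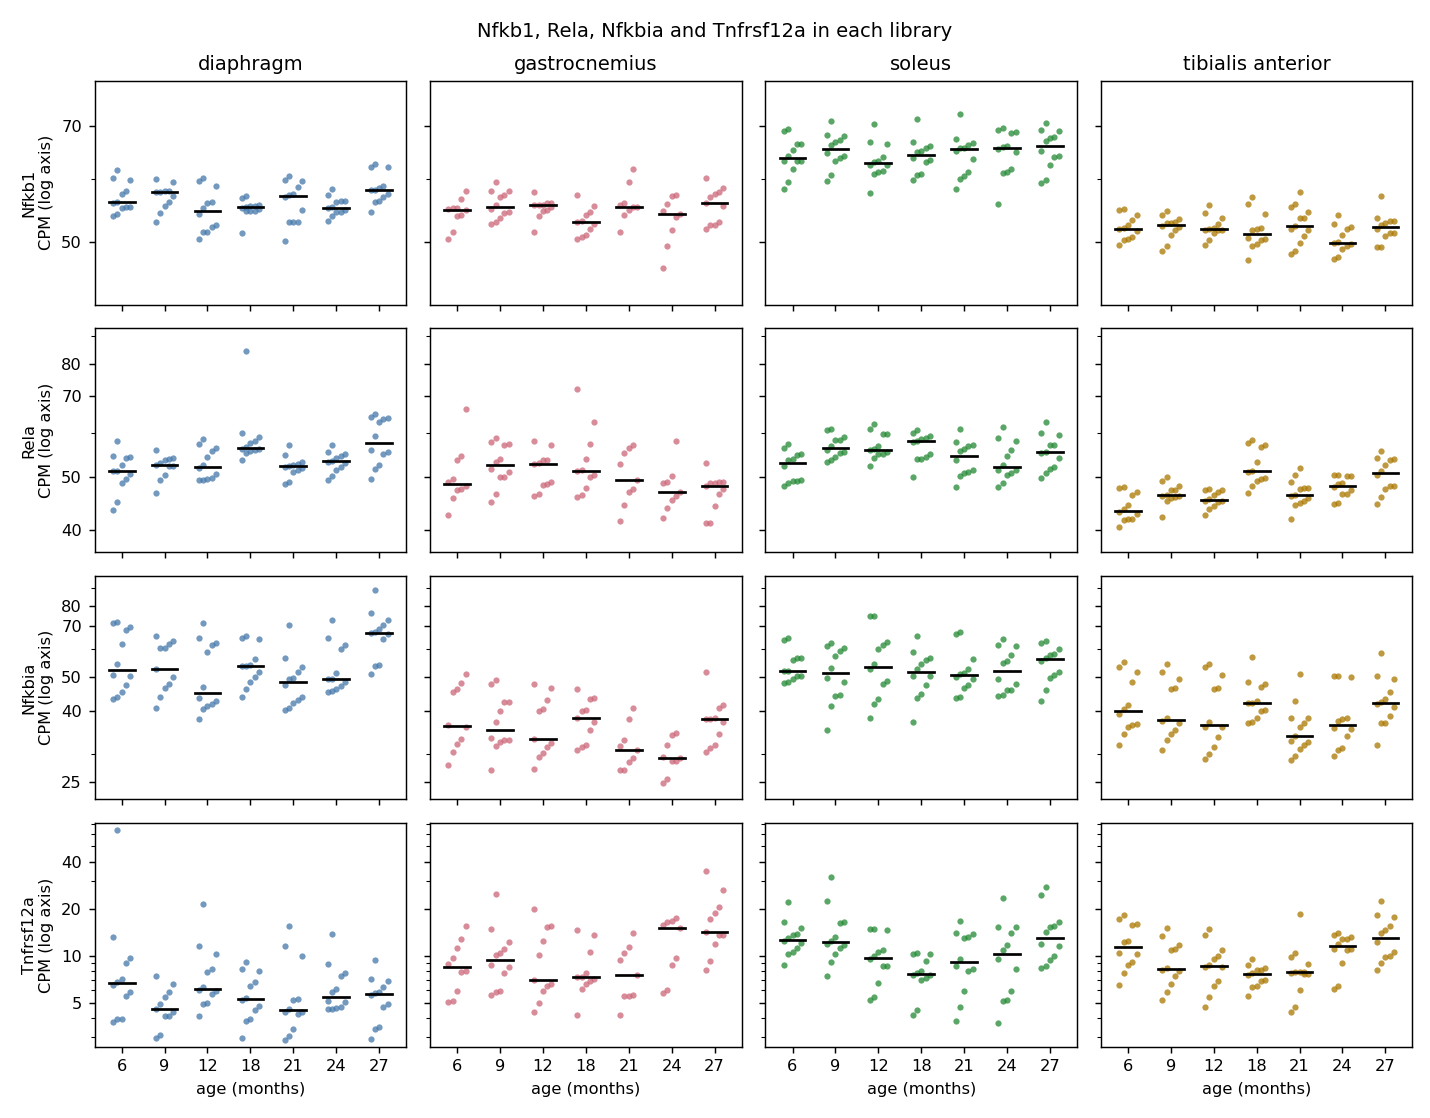
CPM of Nfkb1, Rela, Nfkbia and Tnfrsf12a (rows, log axes) in each library by age in months, in 4 columns by muscle, with black bars at the group medians. Nfkb1 stays flat with the soleus highest. The point at 63.9 in the young diaphragm is the library whose omission moved the Tnfrsf12a change there most and, like some others, ended the call.

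Across the 5 ages from 9 to 24 months, 16 of 140 combinations of member, muscle and age were called: 7 for Nfkb2, 4 for Map3k14, 3 for Bcl3 and 2 for Tnfrsf12a. None fell at 9 or 12 months, when 9 combinations had an unadjusted p under 0.05 in limma-voom, nor in the diaphragm at any of these ages. The share of all genes called at 9 months was 0.108% in the diaphragm, 0.143% in gastrocnemius, 0.123% in soleus and 0.00851% in tibialis anterior, and at 12 months it was 0.532%, 0.885%, 0.353% and 0.196%. At 18 months it was 2.25%, 4.32%, 2.84% and 5.45%, with 1 member called in soleus and 2 in tibialis anterior. At 21 months 1.68%, 5.81%, 2.61% and 6.47% of genes were called, and of the 7 members none, 2, 1 and 1. At 24 months the shares were 2.68%, 18.8%, 6.51% and 14.5%, and 3 members were called in each limb muscle. With DESeq2 19 combinations were called and with edgeR 20.

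The course over age was described by models without a trend, with a line and with a sigmoid on log2 CPM, compared by the Bayesian information criterion. Nfkb2 and Map3k14 had a trend in every muscle. The sigmoid of Map3k14 had its midpoint at 20 months in the gastrocnemius, 24.2 in the soleus, 23.8 in the tibialis anterior and 26.5 in the diaphragm. Nfkb2 took a line in the gastrocnemius and soleus and a sigmoid with a midpoint at 21.5 months in the tibialis anterior and 26.5 in the diaphragm. Bcl3 took a line in the gastrocnemius and tibialis anterior (0.05 log2 units per month in both), a sigmoid at 25 months in the soleus, and no trend in the diaphragm. Midpoints were read from a grid of 0.25 months, and no error was estimated for them. No age between 24 and 27 months was sampled, so a midpoint in that gap cannot be placed within it. The order of the muscles by midpoint was not tested. Rela took a line in the diaphragm and tibialis anterior and Tnfrsf12a a sigmoid at 24 months in the gastrocnemius, while Nfkb1 and Nfkbia had no trend in any muscle. For comparison, 30.5% of all genes tested had a trend in the diaphragm, 55.2% in gastrocnemius, 40.2% in soleus and 64.8% in tibialis anterior.

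Muscle differences in the 27 against 6 months change were tested in a joint limma-voom fit of all libraries. The labels do not say whether libraries of different muscles came from the same animals. This fit, also used for the 6-month differences, treated all libraries as independent. Of 42 combinations of a member and a muscle pair, 8 were called: 3 for Bcl3, 3 for Tnfrsf12a and 2 for Map3k14. Among all genes 21.6% were called between gastrocnemius and diaphragm, 11.9% between soleus and diaphragm, 20.3% between tibialis anterior and diaphragm, 14.5% between soleus and gastrocnemius, 7.32% between tibialis anterior and gastrocnemius, and 15.8% between tibialis anterior and soleus. The change of Bcl3 exceeded that in the diaphragm by 0.97 in gastrocnemius (95% interval 0.52 to 1.42), 1.08 in soleus (0.68 to 1.48) and 1.13 in tibialis anterior (0.70 to 1.56). Among the limb muscles the Bcl3 changes differed by 0.05 to 0.16, with intervals from -0.39 at the lowest to 0.64 at the highest and adjusted p from 0.70 to 0.89. Without diaphragm replicate 0 at 6 months the differences from the diaphragm were 0.85, 0.96 and 1.01, all still called, and 6 of the 42 combinations were called in place of 8. Map3k14 rose more in the tibialis anterior than in the diaphragm by 1.02 (0.68 to 1.36, adjusted p = 1.3e-07). The soleus difference of Map3k14, 0.62 (0.27 to 0.96), fell to 0.50 without that library, below 1.5-fold.

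Nfkb2, in contrast, was called in no pair. Its rise in the tibialis anterior exceeded that in the diaphragm by 0.49 (0.24 to 0.75, adjusted p = 0.00067), and its rise in the soleus exceeded that in the diaphragm by 0.38 (0.13 to 0.64, adjusted p = 0.014), both under 1.5-fold. The gastrocnemius difference from the diaphragm was 0.15 (-0.10 to 0.41). With counts scaled to library totals alone the tibialis anterior difference of Nfkb2 was 0.82 and called. Tnfrsf12a differed between gastrocnemius and diaphragm by 1.56 (0.88 to 2.25, adjusted p = 4.7e-05), and by 1.20 without the diaphragm library that stood apart (adjusted p = 0.0014). Its difference between tibialis anterior and diaphragm, 0.90 with all libraries, was 0.54 without that library and no longer called (adjusted p = 0.17). Between soleus and gastrocnemius it was -0.86 (-1.48 to -0.25, adjusted p = 0.019), and edgeR, DESeq2 and the replicate block put its adjusted p at 0.059, 0.064 and 0.054. For Nfkb1 the muscle differences lay between -0.03 and 0.00, with intervals from -0.11 to 0.08. The Rela change in the gastrocnemius was lower than in the diaphragm (a difference of -0.28), and that in the tibialis anterior was higher than in the gastrocnemius by 0.29, both with adjusted p under 0.001 and under 1.5-fold. With counts scaled to library totals alone the first of these was 0.0091 (adjusted p = 0.92).

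**Figure D4:**
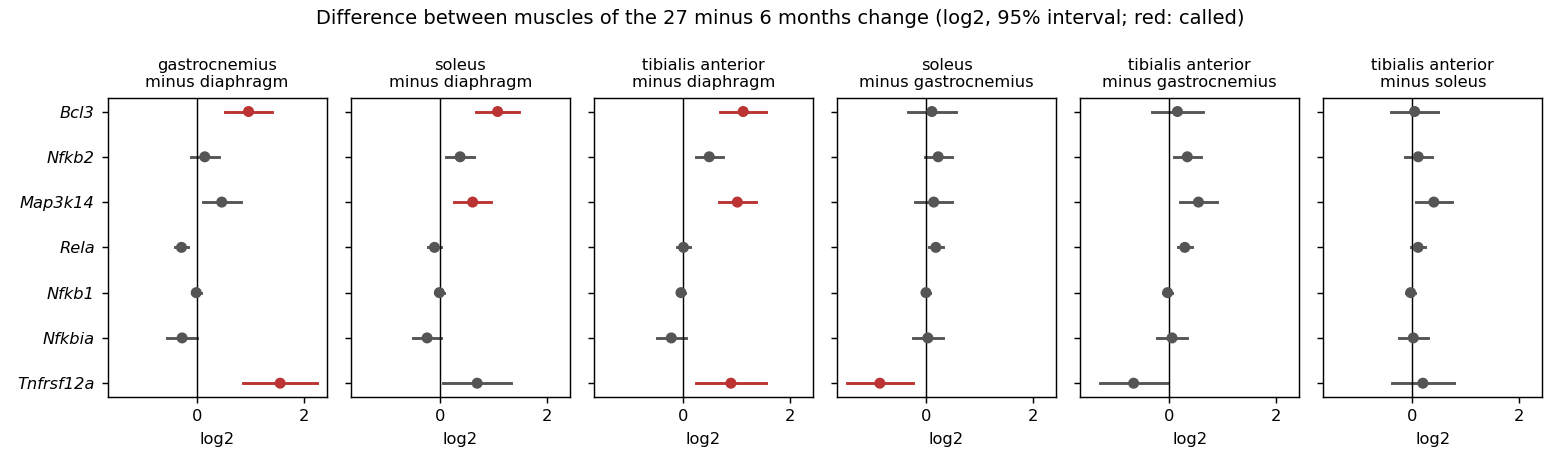
Difference between 2 muscles in the log2 change from 6 to 27 months for each member (rows), in 6 panels by muscle pair, with 95% intervals as bars, red where called. Bcl3 lies right of 0 in the 3 panels against the diaphragm (0.97, 1.08 and 1.13) and near 0 in the 3 panels between limb muscles.

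At 6 months itself, 5 of 42 member and muscle combinations were called, those of Bcl3, Nfkb2 and Tnfrsf12a given above. Among all genes 37.3% were called between gastrocnemius and diaphragm, 23.9% between soleus and diaphragm, 35.1% between tibialis anterior and diaphragm, 45.4% between soleus and gastrocnemius, 17.3% between tibialis anterior and gastrocnemius and 42.9% between tibialis anterior and soleus. This count depended on the scaling, with 15 calls when counts were scaled to library totals alone.

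Members were then compared between animals of the same age. Log2 CPM was taken after removal of the age means, and 21 pairs of members in 4 muscles gave 84 relations, each with a permutation test within age and Benjamini-Hochberg adjustment over the 84. Of these, 29 had an adjusted p under 0.05 by Pearson's r and 26 by Spearman's rho. Relations between other genes were not computed, so whether such counts are particular to the members was not tested. Nfkb2 and Map3k14 varied together in all 4 muscles. In the tibialis anterior (85 libraries) their Pearson r was 0.78 and Spearman rho 0.75, both with a permutation p of 1e-05, the smallest that the resamples can give (adjusted p 9.3e-05 and 8.4e-05), and r was 0.70 without the 2 farthest libraries. In the gastrocnemius (73 libraries) r was 0.67 and rho 0.59 (permutation p 1e-05 for both), and r was 0.61 without the farthest 2. In the diaphragm (83 libraries) r was 0.52 and rho 0.56 (permutation p 1e-05 for both), with 0.45 left. In the soleus (84 libraries) r was 0.56 (permutation p 4e-05) and rho 0.37 (permutation p 0.0025), with 0.47 left.

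Bcl3 also varied with both of these within age. Its r with Nfkb2 was 0.63 in the tibialis anterior, 0.53 in the soleus, 0.43 in the gastrocnemius and 0.43 in the diaphragm, and its rho 0.53, 0.48, 0.43 and 0.41, with adjusted permutation p of at most 0.0019. Without the 2 farthest libraries r was 0.53, 0.49, 0.46 and 0.36. With Map3k14 its r was 0.58 in the tibialis anterior, 0.49 in the soleus, 0.52 in the gastrocnemius and 0.41 in the diaphragm. Its rho there was 0.50, 0.42, 0.48 and 0.34, with adjusted permutation p of at most 0.014. Those r values fell to 0.47, 0.46, 0.45 and 0.24 without the 2 farthest libraries. In the diaphragm, where the mean of Bcl3 was not called to change, it thus still varied with Nfkb2 from library to library. Of the 24 relations of Nfkb1 or Nfkbia with these 3 genes, 1 passed by r, that of Nfkb2 with Nfkbia in the gastrocnemius (r 0.30, rho 0.28, adjusted permutation p 0.039 and 0.058), and 1 by rho, that of Nfkb1 with Map3k14 in the tibialis anterior (r -0.26, rho -0.29, adjusted permutation p 0.081 and 0.041). Rela varied with the same 3 genes in 6 of 12 relations by r and 5 by rho, none of them in the soleus. By r these were Nfkb2 in gastrocnemius (0.52), diaphragm (0.43) and tibialis anterior (0.39), Map3k14 in diaphragm (0.42) and tibialis anterior (0.37), and Bcl3 in diaphragm (0.35), which stood at 0.54, 0.29, 0.32, 0.36, 0.39 and 0.18 without the 2 farthest libraries. In the soleus Tnfrsf12a and Nfkbia varied in opposite directions (r -0.32, rho -0.29, adjusted permutation p 0.014 and 0.038). With total count and the share of the 10 most abundant genes removed as well, 37 relations passed, and Nfkb2 with Map3k14 stood at 0.75 in tibialis anterior, 0.71 in gastrocnemius, 0.53 in soleus and 0.52 in diaphragm. Among those 37 were 9 of the 12 relations of Rela and 4 of the 24 of Nfkb1 or Nfkbia, with Nfkb1 in the tibialis anterior at -0.40 with Nfkb2 (adjusted permutation p 0.0034) and with Map3k14 (adjusted permutation p 0.0024).

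Over the 28 means of muscle and age, with each muscle's mean removed, the genes closest to each member were sought among 11517 genes tested in all muscles. These values describe shared courses over age and carry no test. Closest to Map3k14 were Hdac4 (r = 0.99), Lmnb2 (0.98) and Mgst2 (0.98), and closest to Nfkb2 were Tubb6 (0.97), Chrng (0.97) and Runx1 (0.97). Hdac4 encodes a class IIa histone deacetylase and Chrng, also on the list of denervated fibre markers, the embryonic subunit of the acetylcholine receptor. Closest to Bcl3 were Efhd2, Fst and Atat1 (0.97 each), where Fst encodes follistatin, which binds activins and myostatin. Between the rising members r was 0.96 for Bcl3 with Map3k14, 0.95 for Nfkb2 with Map3k14 and 0.90 for Bcl3 with Nfkb2. Tnfrsf12a lay closest to Hbegf (0.88), a growth factor gene, Pld1 (0.81) and Tulp4 (0.80). Hbegf was also high in the diaphragm library that stood apart, at 103 CPM against at most 11.2. Nfkbia lay closest to Ddit4 (0.87), a stress response gene, Sema6b (0.82) and Cebpd (0.80), Rela to Nucb1 (0.85), Raver1 (0.85) and Mark2 (0.83), and Nfkb1, with the weakest match, to Clp1 (0.68), Usp54 (0.67) and B3gnt8 (0.65).

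Other genes of the pathway were taken from lists by role, and their counts at 27 months stand beside the shares of all genes called higher or lower given above. Of 10 genes listed as a further subunit and inhibitors, 7 were matched and tested, and 1, 4, 2 and 4 were called higher in the diaphragm and then gastrocnemius, soleus and tibialis anterior, none lower. The listed subunit, Rel, was not matched, so none of the 7 was a subunit. Nfkbie, which encodes a cytoplasmic inhibitor, rose in all 4 muscles, by 0.60 (SE 0.15), 1.29 (SE 0.17), 1.04 (SE 0.17) and 1.88 (SE 0.19) in that order. Otulin, which encodes an enzyme that cuts linear ubiquitin chains, rose by 1.34, 0.63 and 1.65 in the limb muscles (SE 0.10, 0.11 and 0.12) and stood at 0.14 in the diaphragm (SE 0.08, adjusted p = 0.15). Tnip2 rose in the gastrocnemius (0.79) and tibialis anterior (0.72), and Nfkbiz in the gastrocnemius (0.99). Median changes of this list were 0.14, 0.79, 0.53 and 0.59, against 0.00, 0.04, 0.02 and 0.02 over all genes.

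Of 19 ligand and receptor genes listed 18 were matched and 12 to 14 were tested, and 1, 4, 2 and 2 were called higher and none lower. Tnfsf12, which encodes Tweak itself, was not called, with changes of -0.17, -0.17, 0.20 and -0.14. Il1b, which encodes interleukin-1 beta, rose in the 3 limb muscles (1.05, 0.94 and 1.75), and Tlr2, a receptor for bacterial lipoproteins, in the gastrocnemius (0.81) and tibialis anterior (1.31). Tnfsf13b, which encodes the B cell survival factor BAFF, rose in the 3 muscles where it was tested, the diaphragm, gastrocnemius and soleus (0.81, 1.36 and 1.53). Tlr4, the lipopolysaccharide receptor, rose in the gastrocnemius (0.72). Levels of Il1b and Tnfsf13b were low, with medians of at most 0.79 CPM. The filter worked by age group, so such scarce genes could be tested on their level in old muscle alone, which favours a rise. Of 19 adaptor and kinase genes, all tested, none, 3, 2 and 3 were called higher and none, 1, none and 2 lower. Traf2, an adaptor that restrains the Map3k14 kinase, rose by 0.64, 0.61 and 0.85 in the limb muscles and stood at 0.40 in the diaphragm. Traf1 rose in the gastrocnemius (0.95) and tibialis anterior (1.21), Ikbke in the tibialis anterior (0.82), and Tab2, an adaptor of the kinase Map3k7, fell by 0.91 in the gastrocnemius and by 1.05 in the tibialis anterior.

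Of 20 genes known as NF-kappaB targets, 16 to 19 were tested, and 1 of 19, 9 of 16, 7 of 18 and 10 of 17 were called higher in that same order of muscles, with none, none, 1 and 1 lower. Myc rose by 2.14, 1.09 and 2.12 in the limb muscles, Junb by 1.72, 1.41 and 1.91, Ccl7 by 1.22, 1.67 and 2.06 and Cxcl10 by 1.43, 1.32 and 1.11. In the diaphragm the same genes stood at 0.48, 0.56, 0.63 and 0.61 and were not called. Myc and Junb are growth and immediate early regulators that many pathways induce, and Ccl7 and Cxcl10 encode chemokines that leukocytes also make, here at medians of at most 1.21 CPM. For such scarce targets, too, the filter by age group favours a rise, which bears on the counts of this list. Median changes of the list were 0.26, 0.85, 0.41 and 0.70.

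**Figure D5:**
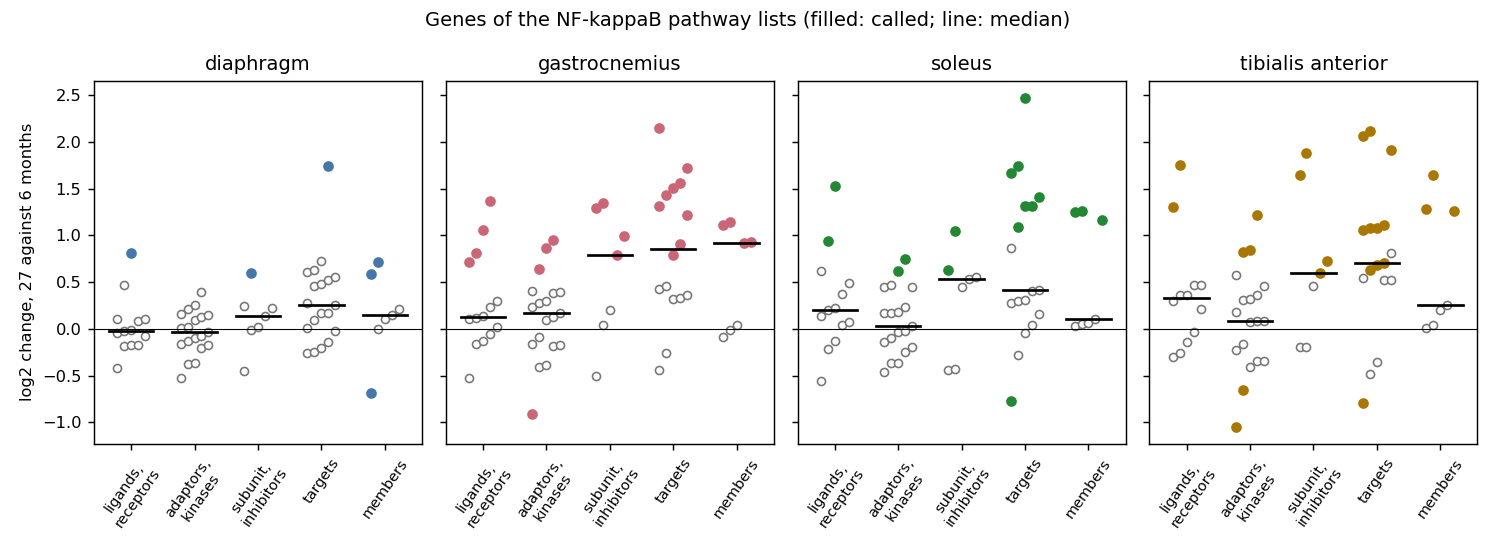
Log2 change from 6 to 27 months of each tested gene of the 4 pathway lists and of the members (columns), in 4 panels by muscle, filled where called and with a line at the median. Target genes reach 2.14 in the gastrocnemius and 2.12 in the tibialis anterior, and the medians of the adaptors and kinases lie between -0.04 and 0.17. The column of the subunit and inhibitors holds no subunit, as Rel was not matched.

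Marker genes of other cells and of denervated fibres were called at 27 months as well. In bulk tissue, fewer cells of a type and less RNA per cell cannot be told apart. All 6 denervated fibre markers were called higher in all 4 muscles. Their summed level in the diaphragm was 67.3 to 101 CPM at 6 months and 128 to 510 at 27 months. It was 63.2 to 84.0 and later 336 to 1137 in the gastrocnemius, 174 to 221 and later 314 to 1207 in the soleus, and 44.5 to 66.2 and later 412 to 2022 in the tibialis anterior. Young and old libraries thus did not overlap in any of the 4 muscles. Of 10 macrophage markers 1, 10, 2 and 10 were called higher in the same order of muscles. Their summed level was 219 to 433 CPM at 6 months and 343 to 780 at 27 months in the diaphragm, 169 to 272 and later 291 to 525 in the gastrocnemius, 259 to 496 and later 424 to 588 in the soleus, and 78.8 to 131 and later 159 to 353 in the tibialis anterior. T cell markers were called higher in 3 of 7, 4 of 5, 3 of 5 and 5 of 5 tested genes, with 1 lower in the soleus, and neutrophil markers in 2 of 3, 2 of 2, 1 of 3 and 2 of 2. Of B cell markers none of 5 was called in the diaphragm and the single tested one rose in each limb muscle, while adipocyte markers were called higher in none, 4, 4 and 4 of 5. The filter worked by age group, so a gene scarce at 6 months could be tested on its level in old muscle alone. That favours a rise among the few tested B cell, neutrophil and T cell markers. In the tibialis anterior, for instance, the 5 matched B cell genes summed to 0.19 to 0.51 CPM at 6 months. Endothelial markers fell in none, 1, 1 and 1 of 5, and fibroblast markers in 4, 2, 2 and none of 6. Schwann cell markers were called higher in none, 1, 1 and 2 of 5, with 2 lower in the gastrocnemius, and muscle fibre markers in 1, none, 2 and none of 6, with none, 2, none and 3 lower. No matched marker was at 0 throughout the 6- and 27-month libraries of a muscle. The part of these cell and fibre states in the changes of the members was not tested.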

How the data were processed

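The deposited values were raw counts of reads per gene and library, which the authors made in ArrayStudio from paired-end, strand-specific libraries depleted of rRNA, against the rat B6.0 reference with a gene model based on RefSeq. The version of ArrayStudio and the strand setting of the counting are not given in the sources used here. Total counts were 17.6M to 85.3M a library, and no 2 libraries held identical counts.

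Groups were taken from the muscle and age labels. Genes were filtered in edgeR 4.0.16 (filterByExpr, minimum count 10, minimum total 15), scaled by TMM and fitted per muscle over all ages in limma-voom (limma 3.58.1, R 4.3.3), each age against 6 months, with Benjamini-Hochberg adjustment over all genes tested. Differences between muscles were fitted jointly over all libraries, and levels are CPM from that joint scaling. limma-voom on the counts followed the study's choice of model, and edgeR and DESeq2 1.42.0 were alternatives. Members were related within age by 100000 permutations. A trend needed a BIC gain over 6, and a sigmoid a gain over 2 beyond the line. The single-muscle fit was tested on simulated data for 27 against 6 months in the tibialis anterior, in limma-voom and edgeR. Other alternatives were RLE and total-count scaling, no filter, quality weights, a replicate block, only 6 and 27 months, other thresholds and each library left out. Leaving out diaphragm replicate 0, the libraries least like their group, and genes named in that library were chosen after seeing the data.

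Genes named were the members, up to 4 genes of each pathway list called in the most muscles (ties by mean absolute change) and the 3 genes closest to each member. Tnfsf12 was named because it encodes the ligand of the Tweak receptor. Members and lists were chosen with earlier results of these data known.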

Additional observations from a re-analysis of the deposited data

Results flagged for a closer look

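The results singled out were muscle differences in the 27 against 6 months change that passed the test of the difference itself in the joint limma-voom fit (adjusted p under 0.05, over 1.5-fold), 8 of 42. Among all genes, 7.32% to 21.6% were called in the same contrasts, depending on the muscle pair, so the count alone does not set the members apart. For Bcl3 the change exceeded that of the diaphragm by 0.97 in gastrocnemius, 1.08 in soleus and 1.13 in tibialis anterior on the log2 scale. For Map3k14 the excess over the diaphragm was 0.62 in soleus and 1.02 in tibialis anterior. For Tnfrsf12a it was 1.56 in the gastrocnemius and 0.90 in the tibialis anterior, and the soleus lay below the gastrocnemius (-0.86). Without diaphragm replicate 0 at 6 months, the Map3k14 difference of the soleus (0.50) and the Tnfrsf12a difference of the tibialis anterior (0.54) were no longer called. The gastrocnemius values cannot be told apart from its own running-number series.

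A library far from its group was looked for by Dixon's test in the 21 combinations of a member and a gastrocnemius group of 9 or 10 libraries, and 0 were found. Larger groups, among them the young diaphragm, were outside the sizes tested.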

How the results depend on the processing

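The calls of Bcl3 and Map3k14 in the 3 limb muscles and of Nfkb2 in all 4 muscles at 27 months held in all alternatives run, except Nfkb2 in the diaphragm and gastrocnemius at a 2-fold threshold. That threshold left 0 calls in the diaphragm, 2 in the gastrocnemius, 5 of 140 from 9 to 24 months, 4 of 42 muscle differences and 0 at 6 months. Bonferroni adjustment ended both Tnfrsf12a calls at 27 months and left 3 muscle differences and 2 at 6 months, and quality weights gave 8 at 6 months. Leaving out each library gave 1 to 3 calls in the diaphragm. Scaling to library totals alone gave 15 calls at 6 months and 48 relations. It also moved the median over all genes of the 27-month change from 0.04 to 0.32 in the gastrocnemius, 0.02 to 0.16 in the soleus and 0.02 to 0.34 in the tibialis anterior, and the share of calls that were higher from 66.0% to 90.0%, 61.4% to 77.7% and 62.4% to 89.1%. The member calls at 27 months were the same in number under it.

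Nfkb1 in the diaphragm turned to 0.0049 with RLE factors, 0.035 with total counts, 0.0033 without the filter, 0.0031 in DESeq2, 0.0059 with quality weights, 0.011 with only 6 and 27 months and 0.0074 without the libraries least like their group. With single libraries left out it ran from -0.012 to 0.018, Nfkb1 in the tibialis anterior from -0.0015 to 0.018, Nfkbia in the gastrocnemius from -0.064 to 0.034 and Tnfrsf12a in the soleus from -0.049 to 0.14. With total counts, Rela in the gastrocnemius was 0.19 (adjusted p = 0.0015), Nfkbia there 0.27 (adjusted p = 0.013), and the Rela difference between gastrocnemius and diaphragm went from -0.28 to 0.0091. Nfkbia in the gastrocnemius was 0.035 with quality weights. The cause was not tested.

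The replicate numbers were not shown to pair the libraries, and the labels do not say whether they do. Between muscles, same-numbered libraries of an age correlated at a median of 0.034 to 0.084 in pairs with the gastrocnemius. In the other 3 pairs the median was 0.13 to 0.20. Over all pairs 36.1% to 72.3% of these were over 0.1, and different numbers gave medians of -0.028 to -0.012. Same-numbered libraries were thus more alike in every muscle pair. A shared animal is possible, and the joint fit without the block ignored it. With the replicate number as a block, 2 members were called in the diaphragm, 4 combinations at 6 months and 8 muscle differences, of which the Tnfrsf12a difference between soleus and diaphragm (0.82) took the place of the one between soleus and gastrocnemius, and Nfkbia in the gastrocnemius was 0.0050. The counts of 16 calls from 9 to 24 months and of 4, 3 and 3 in the limb muscles at 27 months were the same with the block. Within a muscle, same-numbered libraries of different ages are different animals, and they correlated at a median of 0.0025 to 0.025. The block of the single-muscle fits thus matched no known unit, and it cannot show whether those calls are robust.

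The lowest count in a library was 27 for Bcl3 and 871 for Nfkb1, and counting error was not separated from the spread between animals.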
